A study of Mus musculus with 5 samples.

Results

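The Hox cluster genes were taken as the rows whose symbol is Hox, a cluster letter from a to d and a number, and they were 39 of the 46959 gene symbols in the count files. They lie in 4 clusters of the mouse genome (build mm10, GENCODE release M21). The Hoxa cluster holds 11 members on chromosome 6 (52155590 to 52260880), Hoxb 10 on chromosome 11 (96194316 to 96368256), Hoxc 9 on chromosome 15 (102921103 to 103036852) and Hoxd 9 on chromosome 2 (74668310 to 74765142). RNA was compared between 3 libraries of caMNK cells and 2 libraries of pBABE cells. Both are lines of D4m.3a, a melanoma cell line of the mouse strain C57BL/6, at passages 7 to 12. The caMNK cells carry constitutively active MNK, a kinase that phosphorylates the cap-binding protein eIF4E, and the pBABE cells carry the vector and served as the control. The labels do not say whether a line is a clone or a pool, nor which promoter drives the kinase. Each group is a single line, so the kinase and any other way in which these lines differ cannot be told apart.

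Hox genes encode transcription factors that bind DNA through a homeodomain, mostly together with cofactors of the PBX and MEIS families. The genes stand in their clusters in the order of their paralog group, a number shared by the corresponding genes of the 4 clusters: low-numbered genes are used first and nearest the head of the embryo, high-numbered genes later and nearer the tail. Cells of the adult often keep the set of Hox genes of the body region that they came from. Retinoic acid switches on low-numbered groups, Polycomb complexes hold silent stretches of a cluster shut, and Trithorax complexes keep active stretches open.

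In pBABE cells the expressed Hox genes came from the middle of the clusters. With expression taken as at least 1 CPM (the count of a gene relative to the TMM-scaled total of its library) in both pBABE libraries, 15 of the 39 members were expressed, and all 15 belonged to paralog groups 3 to 9, which hold 22 members. In caMNK cells 5 Hox genes were higher, Hoxd3 and Hoxd4 in the Hoxd cluster and Hoxb4, Hoxb5 and Hoxb6 in the Hoxb cluster, by 1.41-fold to 2.21-fold. Hoxd8 and Hoxb7, the most abundant members, were not called, and no member was called lower.

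Sequence upstream of members on either side of that split is shown to set the called genes Hoxb4, Hoxd4 and Hoxd3 beside their uncalled cluster neighbours Hoxb8 and Hoxd8. Each is a stretch of 180 bases, from 250 to 71 bases before the gene start in RefSeq (GRCm38.p6). Capitals mark every match to 7 motifs searched on both strands.
Hoxb4, chr11:96318017-96318196, plus strand: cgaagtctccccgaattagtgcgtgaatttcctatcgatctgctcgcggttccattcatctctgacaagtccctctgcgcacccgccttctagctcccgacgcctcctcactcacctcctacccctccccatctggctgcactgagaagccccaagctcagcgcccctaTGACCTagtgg
Hoxd4, chr2:74721728-74721907, plus strand: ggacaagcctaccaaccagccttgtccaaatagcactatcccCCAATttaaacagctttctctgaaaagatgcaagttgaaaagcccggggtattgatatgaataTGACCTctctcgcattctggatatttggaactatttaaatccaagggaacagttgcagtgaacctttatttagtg
Hoxd3, chr2:74711743-74711922, plus strand: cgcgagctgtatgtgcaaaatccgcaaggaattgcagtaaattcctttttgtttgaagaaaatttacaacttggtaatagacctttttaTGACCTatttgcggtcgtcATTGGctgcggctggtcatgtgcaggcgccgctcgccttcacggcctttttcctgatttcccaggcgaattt
Hoxb8, chr11:96281655-96281834, plus strand: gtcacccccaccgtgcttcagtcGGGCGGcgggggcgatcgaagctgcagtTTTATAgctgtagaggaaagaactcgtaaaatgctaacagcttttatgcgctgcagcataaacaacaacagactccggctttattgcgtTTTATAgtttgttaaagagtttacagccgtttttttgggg
Hoxd8, chr2:74704365-74704544, plus strand: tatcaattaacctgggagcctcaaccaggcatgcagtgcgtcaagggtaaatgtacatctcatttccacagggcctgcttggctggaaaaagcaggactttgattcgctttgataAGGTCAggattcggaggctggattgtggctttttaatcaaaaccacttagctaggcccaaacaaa

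The retinoic acid receptor hexamer AGGTCA, which reads TGACCT on the other strand, stood once in Hoxb4, Hoxd4, Hoxd3 and Hoxd8, that is in called and uncalled genes alike. It was present in 10.2% of the 32851 stretches of the same place and length over 27025 genes, and in 5 of the 22 Hox members that had an entry in the table. The CCAAT box (CCAAT or ATTGG) stood in Hoxd4 and Hoxd3 and in 25% of all stretches. Hoxb8 held the SP box GGGCGG, or in reverse CCGCCC, once (21.1% of all stretches), and the TATA box TATAAA, or in reverse TTTATA, at 2 places (8.37%). None of the 5 stretches held the PBX-HOX site TGATNNAT, in reverse ATNNATCA (5.87% of all stretches), the MEIS site TGACAG, in reverse CTGTCA (11.9%), or the E-box CACGTG (3.69%). The matches do not overlap one another in the letters shown. Hoxb5 and Hoxb6 are named only. The Hoxd4 start in RefSeq lies inside the longer GENCODE span of Hoxd4, which begins 2 bases after that of Hoxd3, so the Hoxd4 counts take in a stretch far upstream of the Hoxd4 sequence shown.

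A pair of sister microRNAs sits beside the called genes, miR-10a between Hoxb5 and Hoxb4 and miR-10b inside the Hoxd4 span. Their mature forms (RefSeq, GRCm38.p6) are shown because they share a seed, bases 2 to 8, in capitals. They differ at 1 base, U12A from miR-10a to miR-10b, counted from the 5′ end.
mmu-miR-10a-5p, chr11:96317186-96317208, plus strand: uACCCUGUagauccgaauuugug
mmu-miR-10b-5p, chr2:74726074-74726096, plus strand: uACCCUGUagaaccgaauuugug
The rows of both precursors, Mir10a and Mir10b, held 0 counts in every library. Mature microRNAs were not measured by these total RNA counts.

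The libraries held 27827199 to 48794336 counts, so that 3 counts, taken here as the limit of detection, correspond to 0.0617 to 0.105 CPM. The p-values measure the spread between these libraries, which the series text calls biological replicates. Mknk1, the gene of the kinase, had 167, 155 and 168 CPM in caMNK libraries 1, 2 and 3, against 15.2 and 16.7 CPM in pBABE libraries 1 and 2, so the library labels hold. Over all 17026 genes tested, 753 rose and 599 fell. Leaving out pBABE replicate 1 gave 11 and 12, pBABE replicate 2 gave 37 and 18 and caMNK replicate 1 gave 175 and 80. Leaving out caMNK replicate 2 gave 2325 and 2617, and caMNK replicate 3 gave 938 and 774. These 2 libraries lie at opposite ends of the second principal component (21.3% of the variance). With total-count in place of TMM scaling 999 genes rose and 465 fell. The melanoma label was checked with 12 melanocyte genes: Mitf, the melanocyte lineage regulator, measured 4.71, 6.48 and 4.35 CPM in caMNK and 5.93 and 6.26 CPM in pBABE cells, but the pigment enzyme genes Tyr, Tyrp1 and Dct and the lineage genes Mlana and Sox10 were at or near 0. Of the 12, 2 could be tested and 3 had 0 counts throughout, and the list summed to 5.03 to 6.85 CPM in caMNK and 6.38 to 6.57 CPM in pBABE cells. Of 6 fibroblast genes, which mesenchymal tumor cells may also express, 4 were detected well enough to be tested and none was called. The list summed to 576 to 814 CPM in caMNK and 761 to 812 CPM in pBABE cells. Most of this came from Col3a1, with means of 581 CPM in caMNK and 675 CPM in pBABE cells. Lum and Dpt were under 1 CPM in every library. T cell genes summed to at most 0.784 CPM in caMNK and 0.837 CPM in pBABE cells. Macrophage genes summed to 13.3 to 18.2 CPM in caMNK and 13.4 to 14.97 CPM in pBABE cells. Most of this came from Csf1r, which shares reads with Hmgxb3, with means of 12.3 CPM in caMNK and 12.0 CPM in pBABE cells. Ptprc, Adgre1, Itgam and Lyz2 were under 1 CPM in every library. Endothelial genes summed to 3.73 to 4.04 CPM in caMNK and 5.52 to 9.51 CPM in pBABE cells, and keratinocyte genes to 5.19 to 5.30 CPM in caMNK and 3.87 to 3.93 CPM in pBABE cells. Of these lists 1 gene was called, the endothelial cadherin gene Cdh5, lower in caMNK (log2 fold change -1.43, edgeR adjusted p = 0.0141; 0.0661 without caMNK replicate 1 and 0.113 without pBABE replicate 2); its part in the Hox results was not tested. In RNA of whole cultures, more cells expressing a gene and more RNA per cell cannot be told apart.

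The level of every member in every library sets out the division between expressed and silent positions. Paralog groups 1 and 2, at the end of the clusters used nearest the head, had 5 members with at most 9 counts in any library, and none was tested. Groups 10 to 13, at the tail end, had 12 members, of which Hoxd10 alone passed the filter on low counts. In all, 20 members passed that filter and 19 did not. The 19 had at most 11 counts and at most 0.264 CPM in any library, and 5 of them, Hoxb1, Hoxc11, Hoxc12, Hoxd11 and Hoxd12, had 0 counts in all 5 libraries.

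**Figure D1:**
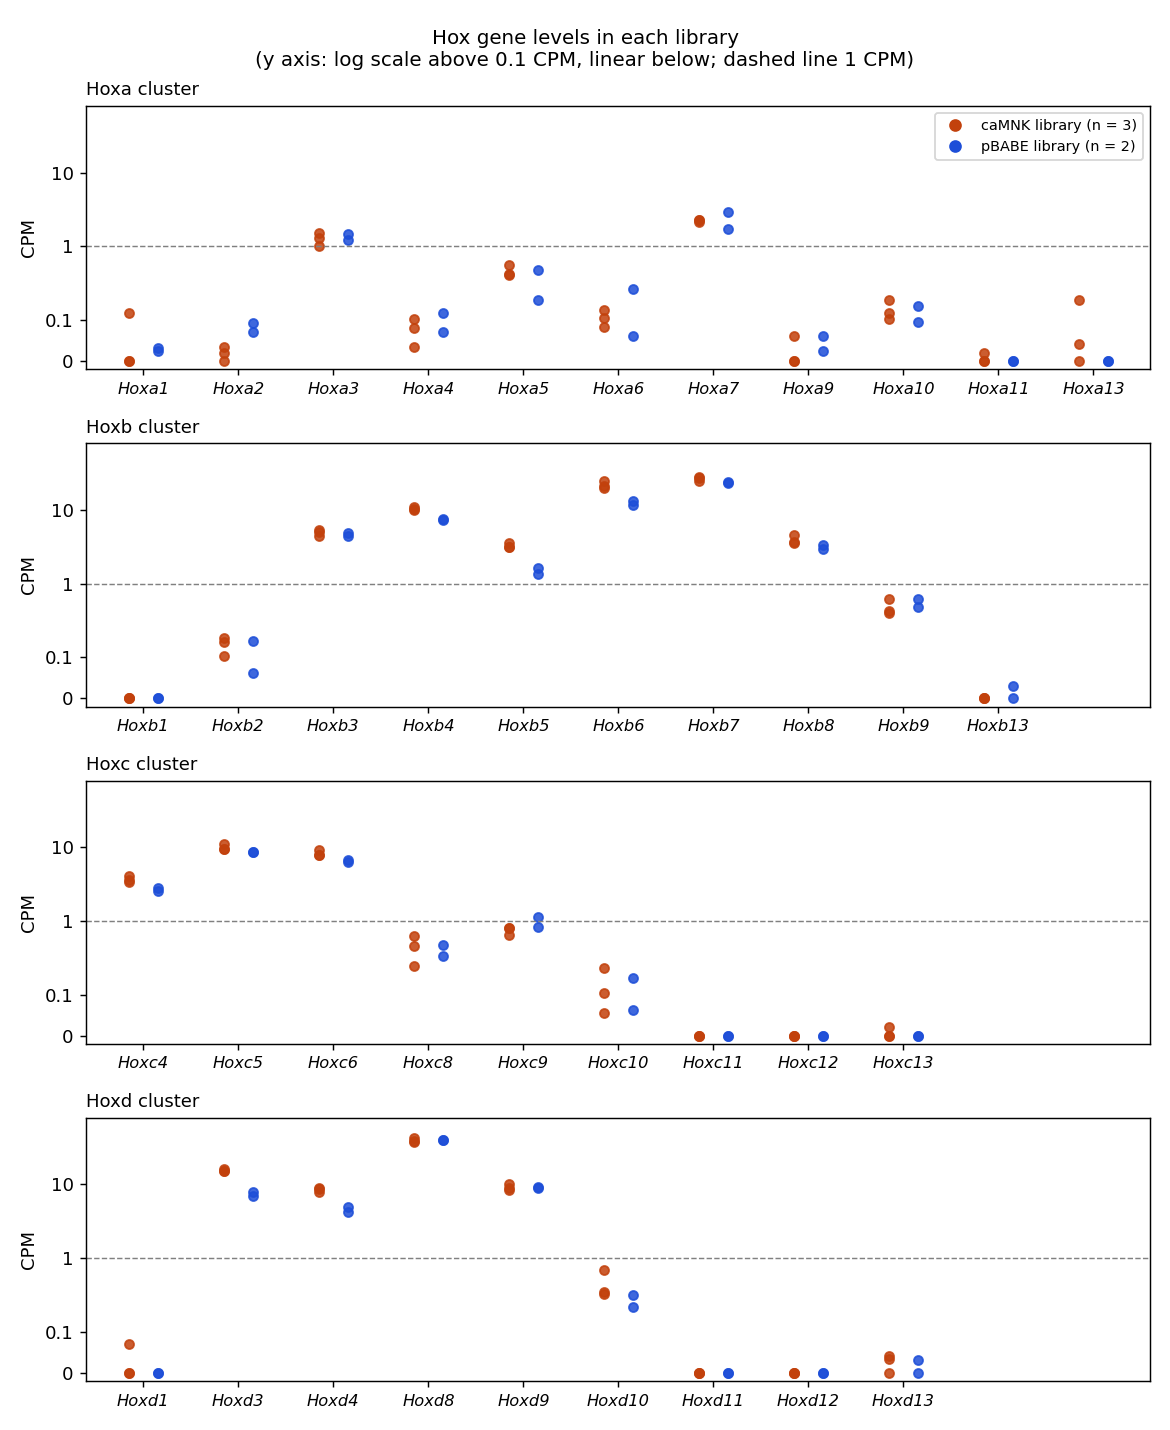
Level of each of the 39 Hox genes in CPM, with one panel per cluster and genes in the order of their paralog group. Points are single libraries, caMNK in orange and pBABE in blue, and the dashed line marks 1 CPM. The 15 genes expressed in pBABE cells lie in groups 3 to 9 of the 4 clusters.

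The clusters took unequal parts. With reads in overlapping members counted once, for the nested member, Hoxb genes summed to 72.2, 70.97 and 72.3 CPM in caMNK, against 53.3 and 53.6 CPM in pBABE libraries. Hoxd genes summed to 62.1, 68.4 and 65.1 CPM in caMNK and 56.9 and 56.8 CPM in pBABE libraries. In both of these clusters every caMNK library lay above both pBABE libraries. Hoxc genes summed to 13.6, 13.3 and 14.4 CPM in caMNK, against 11.6 and 11.2 CPM in pBABE libraries, again without overlap. Hoxa genes summed to 3.94, 3.70 and 3.86 CPM in caMNK and 4.61 and 3.29 CPM in pBABE libraries, where the groups overlap. All clusters together summed to 155 ± 2.40 CPM in caMNK and 126 ± 1.11 CPM in pBABE cells (SD, n = 3 and 2), a ratio of 1.23. The Hoxb share of this sum was 46.4% in caMNK and 42.6% in pBABE cells, and the Hoxd share was 42.2% in caMNK and 45.2% in pBABE cells. No test was run on these sums and shares.

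Between genes, levels can be set side by side only per length. Per kilobase of gene span, the unit over which the authors counted, levels in caMNK cells were 12.1 CPM per kb for Hoxd8, 7.52 for Hoxb7, 3.70 for Hoxd9, 3.09 for Hoxb4 and 2.41 for Hoxb6. In pBABE cells Hoxd8 was highest as well, at 12.1 CPM per kb, followed by Hoxb7 at 6.64, Hoxd9 at 3.68, Hoxb4 at 2.19 and Hoxb6 at 1.38. Per kilobase of annotated exons, in caMNK cells Hoxb7 had 17.2 and Hoxd8 14.6 CPM per kb, and in pBABE cells too Hoxb7 and Hoxd8 changed places, at 15.2 and 14.6 CPM per kb, ahead of Hoxb6 at 6.39, Hoxd9 at 4.28 and Hoxb4 at 2.88, although the counts still hold intronic reads. The order of the first and second place therefore depends on the length used.

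Across the clusters, 5 of the 20 tested members rose in caMNK cells, 25%, where 4.42% of all genes tested rose. None fell, where 3.52% of all genes fell. The test was the quasi-likelihood F test of edgeR with p-values adjusted over all genes and called under 0.05. By unadjusted p under 0.05, 7 members rose and 0 fell (13.8% and 12.1% of all genes), and 5 were higher and 0 lower by DESeq2 (5.54% and 4.48% of all genes) and by limma-voom (3.87% and 3.3%). In 11 members every caMNK library lay above both pBABE libraries, a pattern held by 22.3% of all genes. In 1, Hoxc9, every caMNK library lay below them, as in 22.6% of all genes, and in 8 the groups overlapped. The log2 fold change was positive for 16 members and negative for 4, with a median of 0.27 against 0.00 over all genes. Members that overlap share reads, so the 20 are not separate measurements. Hoxc5 is among the 11 and the 16, but outside nested genes its groups overlapped and its log2 fold change was -0.17. These calls, like those over all genes, rested on few libraries. Without pBABE replicate 1, 0 members rose (0.0631% of all genes), and leaving out pBABE replicate 2 gave 1, Hoxd3 (0.208%). Leaving out caMNK replicate 1 gave 2, Hoxd3 and Hoxd4 (1.04%), leaving out caMNK replicate 3 gave 4 (5.57%), and leaving out caMNK replicate 2 gave 6, with Hoxc6 added (13.9%).

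**Figure D2:**
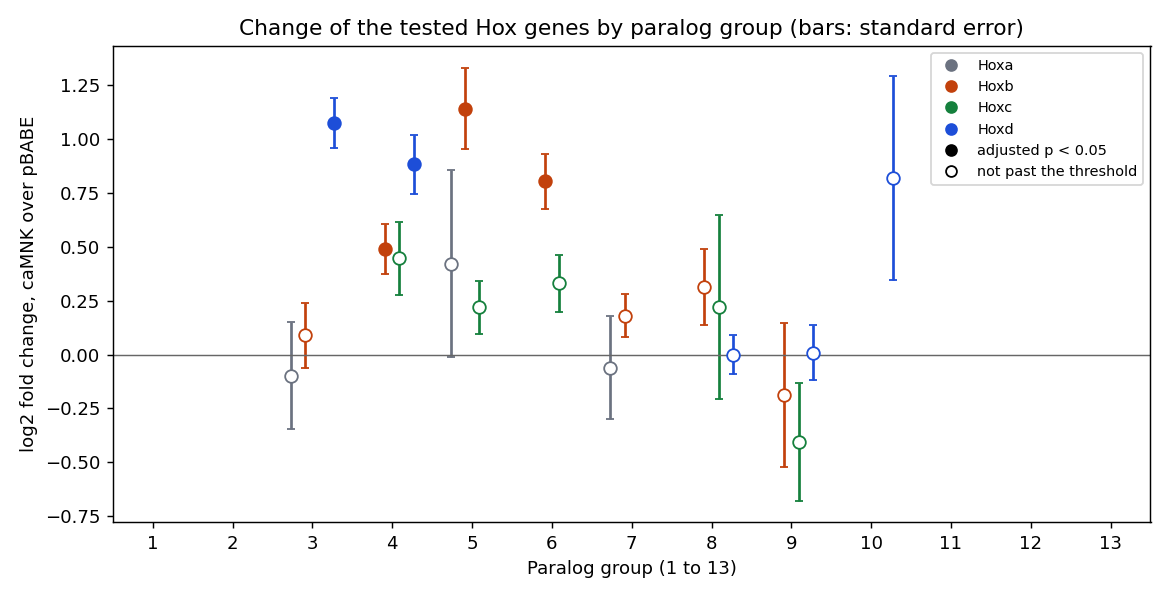
Log2 fold change, caMNK over pBABE, of the 20 tested Hox genes by paralog group, with bars of 1 standard error and colours for the 4 clusters. Filled points passed the threshold; they are Hoxd3 at 1.08, Hoxd4 at 0.88, Hoxb4 at 0.49, Hoxb5 at 1.14 and Hoxb6 at 0.80, all in groups 3 to 6.

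Hoxd3, which in the embryo takes part in patterning the neck vertebrae, is annotated on the plus strand of chromosome 2, from 74711927 to 74748442 (ENSMUSG00000079277.9). It had 15.1, 16.0 and 15.3 CPM in caMNK libraries, against 6.88 and 7.84 CPM in pBABE libraries. The groups were far apart relative to their spread, with means of 15.5 ± 0.477 CPM in caMNK and 7.36 ± 0.675 CPM in pBABE cells (SD, n = 3 and 2). The difference was 2.11-fold (log2 fold change 1.08, SE 0.117), with an adjusted p of 0.00439 by edgeR. Without pBABE replicate 1 the log2 fold change was 0.97 and the adjusted p 0.0938, the only library whose removal ended the call.

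Hoxd4, a hindbrain and neck patterning gene that responds to retinoic acid in the embryo, is annotated from 74711929 to 74729160 on the same strand (ENSMUSG00000101174.8). It had 8.02, 8.91 and 8.59 CPM in caMNK libraries, against 4.27 and 4.99 CPM in pBABE libraries. Every caMNK library was well above both pBABE libraries, a 1.85-fold difference (log2 fold change 0.88, SE 0.138, edgeR adjusted p = 0.0105). Its adjusted p was 0.173 when pBABE replicate 1 was left out and 0.0791 for pBABE replicate 2, with log2 fold changes of 0.76 and 0.99.

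These members share reads, because the whole Hoxd4 span lies inside that of Hoxd3 and reads were counted for each gene they touch. Hoxd4 counts equalled 53.0% to 56.2% of Hoxd3 counts in caMNK and 62.0% and 63.6% in pBABE libraries. Taking the Hoxd4 counts away left the Hoxd3 reads outside Hoxd4, at 7.11, 7.12 and 6.70 CPM in caMNK, against 2.62 and 2.85 CPM in pBABE libraries. That remainder rose by a log2 fold change of 1.35 (SE 0.143, edgeR adjusted p = 0.00380), so the Hoxd3 call does not rest on reads of Hoxd4. A further annotated gene, Gm28230, runs from within the last part of Hoxd4 into Hoxd3 and also rose (log2 fold change 1.29, edgeR adjusted p = 0.00285; 0.0781 without pBABE replicate 1).

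Gm28230 allowed the reads in common to be parted further, a division added after the values had been seen. The reads in the last 2433 bases of Hoxd4, a lower bound since reads past the end of Gm28230 are taken off as well, came to 4.64, 4.83 and 5.46 CPM in caMNK and 1.94 and 2.39 CPM in pBABE libraries. They rose by a log2 fold change of 1.21 (SE 0.175, edgeR adjusted p = 0.00829). The upstream part that Hoxd3 and Hoxd4 have in common, pooled with the last bases of Hoxd3 past Gm28230, had 3.38, 4.07 and 3.14 CPM in caMNK and 2.33 and 2.60 CPM in pBABE libraries. The groups did not overlap there, but the difference did not pass (log2 fold change 0.53, SE 0.186, edgeR adjusted p = 0.116). Thus the rise was measured at the end of Hoxd4, which lies inside the Hoxd3 span as well. It was also measured in the part of Hoxd3 outside Hoxd4, which Gm28230 covers too, but for the last bases. Per kilobase the end of Hoxd4 was the denser, at 2.04 CPM per kb in caMNK and 0.890 CPM per kb in pBABE cells. The part of Hoxd3 outside Hoxd4 had 0.362 CPM per kb in caMNK and 0.142 CPM per kb in pBABE cells. Unspliced Hoxd3 reads that cross Hoxd4 cannot be told apart from Hoxd4 reads.

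**Figure D3:**
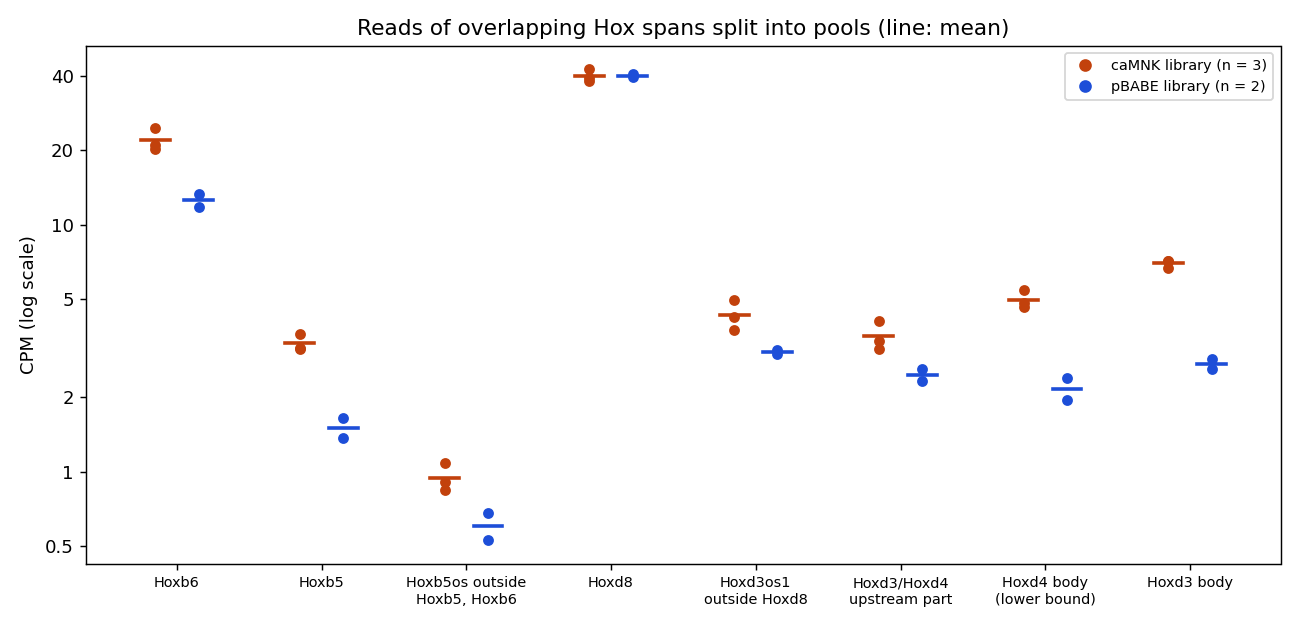
Level in CPM on a log scale of the read pools into which overlapping Hox spans were parted. Points are single libraries (caMNK orange, pBABE blue) and lines are means; the pool of Hoxd3os1 outside Hoxd8 overlaps the upstream part of Hoxd3 and Hoxd4. The caMNK points lie above the pBABE points in all pools shown but Hoxd8.

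Hoxb5, with roles in enteric neural crest and blood stem cells, spans 96303336 to 96306121 on chromosome 11, plus strand (ENSMUSG00000038700.4). It had 3.14, 3.17 and 3.62 CPM in caMNK, from 90, 154 and 134 counts, against 1.37 and 1.64 CPM in pBABE, from 57 and 53 counts. It had the largest fold change among the called members, 2.21-fold (log2 fold change 1.14, SE 0.190, edgeR adjusted p = 0.0123), at the lowest level of the 5. The adjusted p was 0.0535 without caMNK replicate 1, 0.186 without pBABE replicate 1 and 0.0910 when pBABE replicate 2 was left out.

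Hoxb6, next to it and separated by 1766 bases, spans 96292476 to 96301569 (ENSMUSG00000000690.5) and acts in patterning of the trunk. It had 24.6, 20.98 and 20.2 CPM in caMNK libraries, against 11.8 and 13.4 CPM in pBABE libraries. All caMNK libraries were higher, by 1.75-fold (log2 fold change 0.80, SE 0.127, edgeR adjusted p = 0.0110). Its adjusted p was 0.0535 without caMNK replicate 1, 0.172 without pBABE replicate 1 and 0.0828 when pBABE replicate 2 was left out.

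The antisense transcript Hoxb5os overlaps both of these genes and, in counts without strand information, cannot be told apart from them where they overlap. Hoxb5 and Hoxb6 counts together equalled 95.7% to 96.8% of the Hoxb5os counts in all libraries. Hoxb5os had 28.7, 24.99 and 24.9 CPM in caMNK and 13.7 and 15.7 CPM in pBABE libraries and was called (log2 fold change 0.84, edgeR adjusted p = 0.00814; 0.141 without pBABE replicate 1 and 0.0702 without pBABE replicate 2). Its reads outside both Hox genes were few, at 0.906, 0.843 and 1.08 CPM in caMNK and 0.528 and 0.682 CPM in pBABE libraries, and did not pass (log2 fold change 0.65, edgeR adjusted p = 0.186). Which strand carried the Hoxb5 and Hoxb6 reads was not tested.

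Hoxb4, known for expanding blood stem cells when overexpressed, spans 96318267 to 96321638 (ENSMUSG00000038692.8) and overlaps no other annotated gene of the count files. Reads of the opposite strand or of transcripts without annotation cannot be told apart there. Hoxb4 had 10.3, 10.1 and 10.9 CPM in caMNK libraries, against 7.48 and 7.31 CPM in pBABE libraries. The groups were separate, with the smallest difference of the 5 called members, 1.41-fold (log2 fold change 0.49, SE 0.116, edgeR adjusted p = 0.0386). Its adjusted p was 0.133 without caMNK replicate 1, 0.0506 without caMNK replicate 3, 0.306 without pBABE replicate 1 and 0.292 when pBABE replicate 2 was left out.

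**Figure D4:**
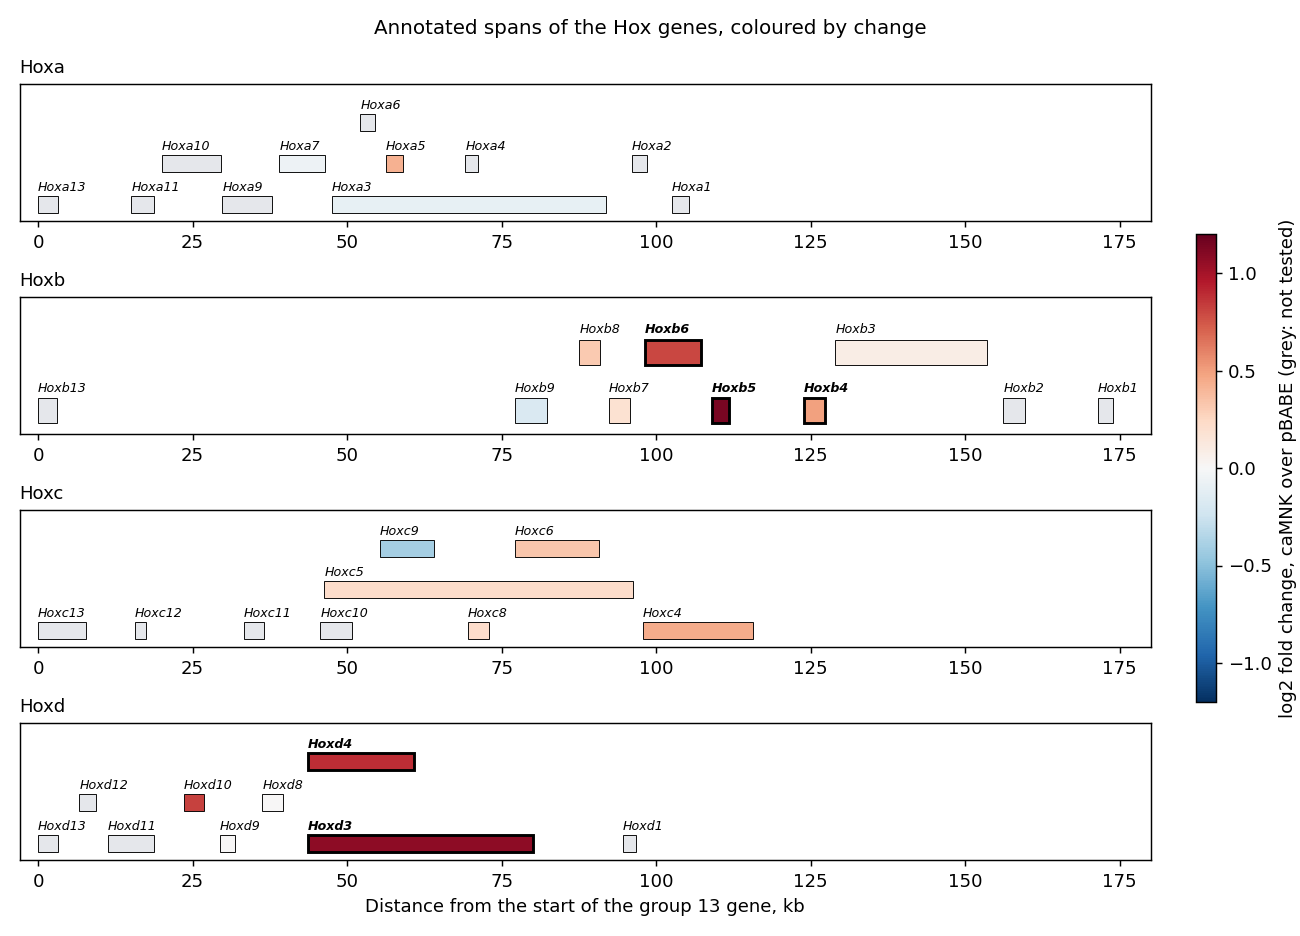
Annotated spans of the 39 Hox genes, one panel per cluster, against the distance in kb from the start of the group 13 gene. Colour gives the log2 fold change, caMNK over pBABE, grey marks genes that were not tested, and bold outlines mark the 5 called genes. The called genes are neighbours: Hoxb6, Hoxb5 and Hoxb4 in a row, and the overlapping Hoxd3 and Hoxd4.

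The neighbours on either side of the Hoxb run were not called, nor was Hoxd8 on one side of the Hoxd pair. Hoxd1, on the other side of that pair, had too few counts to be tested. Hoxb7, whose human counterpart is known for switching on basic fibroblast growth factor in melanoma cells, stands 2313 bases from Hoxb6. It had 24.8, 26.99 and 28.1 CPM in caMNK libraries, against 23.8 and 23.2 CPM in pBABE libraries. All caMNK libraries were higher, but the difference did not pass (log2 fold change 0.18, SE 0.0983, edgeR adjusted p = 0.287). Hoxb3, 1687 bases from Hoxb4 on the other side and active in the hindbrain, had 5.09, 5.43 and 4.43 CPM in caMNK and 4.87 and 4.49 CPM in pBABE libraries, with overlapping groups (log2 fold change 0.09, edgeR adjusted p = 0.756). It shares reads with the antisense genes Gm11536 and Hoxb3os; outside Gm11536, its log2 fold change was 0.11. Hoxb8, which blocks myeloid maturation when overexpressed, had 3.56, 3.68 and 4.54 CPM in caMNK and 3.36 and 2.94 CPM in pBABE libraries (log2 fold change 0.31, edgeR adjusted p = 0.306). Hoxb9 lay under 1 CPM in every library, at 0.405 to 0.627 CPM in caMNK and 0.480 and 0.620 CPM in pBABE (log2 fold change -0.19, adjusted p = 0.776).

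In the Hoxd cluster, Hoxd8 stands 3993 bases upstream of Hoxd3 and was measured with high precision. It had 38.2, 42.5 and 39.4 CPM in caMNK libraries, from 1097 to 2066 counts, against 40.6 and 39.5 CPM in pBABE libraries. The groups overlap and their means were 40.04 ± 2.21 CPM in caMNK and 40.05 ± 0.763 CPM in pBABE cells (SD, n = 3 and 2; log2 fold change 0.00, SE 0.0906, edgeR adjusted p = 0.998). Its counts made up 89.5% to 92.9% of those of the antisense gene Hoxd3os1, so reads of the opposite strand cannot be told apart here. Hoxd9, a limb patterning gene, had 8.30, 9.09 and 10.1 CPM in caMNK and 9.09 and 9.17 CPM in pBABE libraries, with overlapping groups (log2 fold change 0.01, SE 0.128, edgeR adjusted p = 0.976). Hoxd10, at the edge of the silent part, had 0.349, 0.699 and 0.324 CPM in caMNK from 10, 34 and 12 counts, and 0.312 and 0.217 CPM in pBABE from 13 and 7 counts. It was not called (log2 fold change 0.82, SE 0.472, edgeR adjusted p = 0.317), its highest value comes from caMNK replicate 2, and it shares reads with Gm28309. The difference in change between Hoxd3 and Hoxd8, or between Hoxb6 and Hoxb7, was not itself tested.

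The Hoxc cluster had 3 genes expressed in pBABE cells, and all lay higher in every caMNK library without passing the threshold. Hoxc4 had 4.01, 3.54 and 3.35 CPM in caMNK, against 2.76 and 2.54 CPM in pBABE libraries (log2 fold change 0.45, SE 0.169, edgeR adjusted p = 0.138). Hoxc6, a thoracic and limb-level gene, had 7.88, 7.78 and 9.05 CPM in caMNK, against 6.79 and 6.29 CPM in pBABE libraries (log2 fold change 0.33, SE 0.133, edgeR adjusted p = 0.160). It passed at an adjusted p of 0.0379 without caMNK replicate 2. Hoxc5 had 9.52, 9.55 and 11.03 CPM in caMNK and 8.66 and 8.55 CPM in pBABE libraries (log2 fold change 0.22, edgeR adjusted p = 0.302).

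The Hoxc5 row is mostly a reading of its neighbours. Its annotated span of 49987 bases takes in Hoxc6, Hoxc8 and Hoxc9, and Hoxc6 counts alone equalled 81.5% to 82.8% of Hoxc5 counts in caMNK and 78.4% and 73.6% in pBABE libraries. Outside these genes Hoxc5 was left with 0.593, 0.514 and 0.703 CPM in caMNK and 0.696 and 0.651 CPM in pBABE libraries, under 1 CPM, with the direction turned (log2 fold change -0.17, edgeR adjusted p = 0.756). Hoxc8, which acts in motor neurons at limb level, and Hoxc9, which sets thoracic motor neuron identity, were below or about 1 CPM. Hoxc8 had 0.244, 0.617 and 0.459 CPM in caMNK and 0.336 and 0.465 CPM in pBABE (log2 fold change 0.22, adjusted p = 0.792). Hoxc9 had 0.802, 0.638 and 0.811 CPM in caMNK and 0.840 and 1.15 CPM in pBABE, the single tested member that lay lower in every caMNK library (log2 fold change -0.40, SE 0.273, adjusted p = 0.394).

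The Hoxa cluster was the least expressed. Hoxa7, a gene switched on in leukaemias with rearranged Kmt2a, had 2.27, 2.30 and 2.16 CPM in caMNK and 2.93 and 1.70 CPM in pBABE libraries (log2 fold change -0.06, edgeR adjusted p = 0.901). Hoxa3, needed for the thymus and parathyroid, had 1.53, 1.01 and 1.32 CPM in caMNK and 1.46 and 1.24 CPM in pBABE libraries (log2 fold change -0.10, edgeR adjusted p = 0.845). Its span takes in Hoxa4, Hoxa5 and Hoxa6, whose counts came to 30.0% to 59.2% of its own, and outside nested genes it was left with less than 1 CPM in every library. Hoxa5, a lung development gene, had 0.418, 0.411 and 0.567 CPM in caMNK and 0.480 and 0.186 CPM in pBABE libraries (log2 fold change 0.42, adjusted p = 0.589). In each of these 3 genes the groups overlap, and pBABE replicate 1 was the higher of the 2 pBABE libraries. Hoxa3 and Hoxa5 share reads with Gm28308 and Hoxaas3, and Hoxa7 with Hoxaas3.

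Seen by paralog group, again with reads counted once, the sums of groups 3 to 7 were higher in every caMNK library and those of groups 8 and 9 overlapped. Group 3 summed to 12.6 ± 0.784 CPM in caMNK and 8.17 ± 0.0563 CPM in pBABE cells. Group 4 summed to 22.6 ± 0.304 CPM in caMNK and 14.8 ± 0.270 CPM in pBABE cells. Group 5 summed to 4.38 ± 0.446 CPM in caMNK and 2.51 ± 0.0451 CPM in pBABE cells, and group 6 to 30.3 ± 2.08 CPM in caMNK and 19.3 ± 0.637 CPM in pBABE cells. Across groups 3 to 6 the ratios of means ran from 1.53 to 1.74. The called genes all lie in these groups and no other member there was called, so the ratios need not hold for each member. Group 7 had a ratio of 1.12, group 8 of 1.02 and group 9 of 0.973, with 44.4 ± 2.38 CPM in caMNK and 43.6 ± 0.965 CPM in pBABE cells for group 8, the largest sum. All of these are means ± SD over 3 caMNK and 2 pBABE libraries, given without a test.

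**Figure D5:**
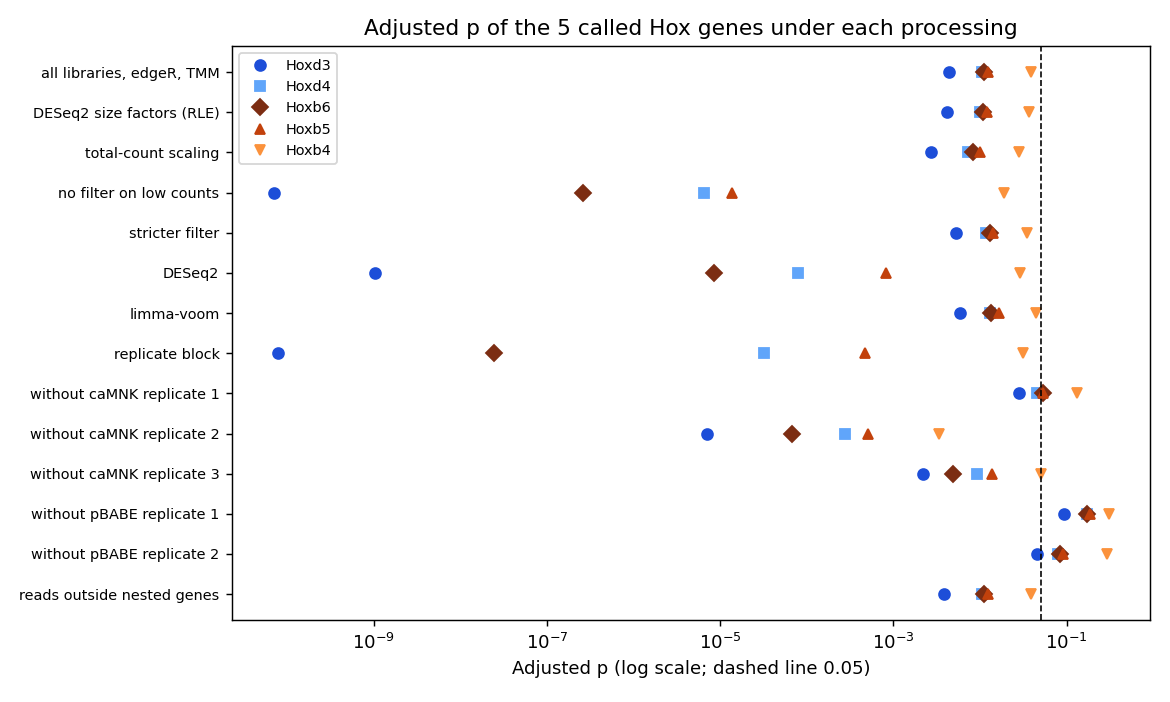
Adjusted p on a log scale of the 5 called Hox genes under each processing, with a dashed line at 0.05. All 5 lie left of the line under each scaling, filter, tool and read-sharing alternative shown and right of it without pBABE replicate 1.

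Genes that work with or upstream of the Hox clusters were read list by list. None of the 9 genes of the TALE cofactors was called, nor any of the 19 PRC1 and 11 PRC2 genes tested, against 4.42% rising and 3.52% falling among all genes. In lists this short, 0 called genes lies near those shares. Pbx2, a DNA-binding partner of Hox proteins, had 37.1, 38.5 and 43.2 CPM in caMNK and 39.1 and 37.7 CPM in pBABE libraries (edgeR adjusted p = 0.829). Phc2 and Cbx6 were the most abundant genes of PRC1, the Polycomb complex that compacts chromatin. Phc2 measured 215 ± 28.4 CPM in caMNK and 196 ± 8.54 CPM in pBABE cells (edgeR adjusted p = 0.511), and Cbx6 155 ± 5.60 CPM in caMNK and 148 ± 4.54 CPM in pBABE cells (0.654). Rbbp7 and Rbbp4 were the most abundant of PRC2, the complex that methylates histone H3. Rbbp7 measured 341 ± 10.3 CPM in caMNK and 381 ± 5.50 CPM in pBABE cells (edgeR adjusted p = 0.248), and Rbbp4 354 ± 3.05 CPM in caMNK and 350 ± 1.05 CPM in pBABE cells (0.918).

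Of 19 Trithorax and elongation genes, 1 rose and 1 fell, near the shares over all genes (4.42% and 3.52%). Kdm6b, a demethylase that removes the Polycomb mark from histone H3, shares reads with the overlapping gene Kdm6bos. It had 49.2, 42.9 and 52.6 CPM in caMNK, against 35.5 and 35.6 CPM in pBABE libraries (log2 fold change 0.44, SE 0.107, edgeR adjusted p = 0.0429). Men1, which encodes menin, a subunit of the Kmt2a and Kmt2b methyltransferase complexes, had 38.5, 36.8 and 40.02 CPM in caMNK, against 54.5 and 52.8 CPM in pBABE libraries (log2 fold change -0.48, SE 0.0860, edgeR adjusted p = 0.0151). Both had separate groups. Without caMNK replicate 1, pBABE replicate 1 or pBABE replicate 2 neither passed, with adjusted p of 0.160, 0.334 and 0.280 for Kdm6b and 0.0889, 0.206 and 0.145 for Men1. By limma-voom Kdm6b did not pass either (adjusted p = 0.0509). The most abundant of this list were Psip1, at 252 ± 35.6 CPM in caMNK and 262 ± 7.99 CPM in pBABE cells (edgeR adjusted p = 0.815), and Aff4, at 148 ± 20.3 CPM in caMNK and 156 ± 5.29 CPM in pBABE cells (0.729).

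Among 18 tested genes of the retinoic acid and CDX inputs, 1 rose and 0 fell, near the shares over all genes (4.42% and 3.52%). Egr2, a hindbrain activator of Hox genes of low-numbered groups, had 0.941, 0.823 and 0.811 CPM in caMNK, against 0.336 and 0.403 CPM in pBABE libraries (log2 fold change 1.21, SE 0.296, edgeR adjusted p = 0.0427). Its adjusted p was 0.134 without caMNK replicate 1, 0.349 without pBABE replicate 1 and 0.208 when pBABE replicate 2 was left out, and with all libraries it was 0.105 by DESeq2 and 0.0519 by limma-voom. Cdx2 and Rarb, named here after their values were seen, had larger but uncalled differences at a few counts. Cdx2, a direct activator of Hox genes in the embryo, had 0.558, 0.370 and 0.892 CPM in caMNK from 16, 18 and 33 counts, and 0.216 and 0.0620 CPM in pBABE from 9 and 2 counts (log2 fold change 1.99, SE 0.594, edgeR adjusted p = 0.0760). Rarb, a retinoic acid receptor gene that shares reads with Top2b, had 0.488, 0.370 and 0.324 CPM in caMNK from 14, 18 and 12 counts, and 0.0720 and 0.186 CPM in pBABE from 3 and 6 counts (log2 fold change 1.63, SE 0.511, edgeR adjusted p = 0.0851). Other uncalled genes of the list went the other way. Rxra, Aldh1a2 and Cyp26b1, also named after their values were seen, lay lower in every caMNK library. Their log2 fold changes were -0.33, -0.58 and -0.24 (edgeR adjusted p = 0.0947, 0.156 and 0.156). The median log2 fold change of the 18 tested genes was 0.08. Crabp1, a retinoic acid binding protein gene, had 208, 177.5 and 218 CPM in caMNK and 236 and 190 CPM in pBABE libraries (adjusted p = 0.726), and Ctcf, whose protein sets boundaries in the clusters, 109, 133 and 103 CPM in caMNK and 127 and 128 CPM in pBABE libraries (adjusted p = 0.476). None of 15 tested genes beside the clusters was called, near the shares over all genes (4.42% rising and 3.52% falling) for a list this short. The most abundant, Hnrnpa3 and Hnrnpa1, had edgeR adjusted p-values of 0.359 and 0.432. Of a list of 17 noncoding genes, not all of them within the clusters as annotated, 9 had 0 counts in every library and 5 were tested. Hoxb5os was the 1 called, higher, where 4.42% of all genes rose. The other abundant one, Hoxd3os1, had 41.97, 47.5 and 43.6 CPM in caMNK and 43.7 and 42.5 CPM in pBABE libraries (edgeR adjusted p = 0.818). Of all 45 other genes annotated within the 4 clusters, 22 had 0 counts in every library and 9 were tested. Of those tested, Hoxb5os and Gm28230 rose (4.42% of all genes rose) and the rest were not called. Both share reads with called Hox genes, so they are not separate measurements.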

How the data were processed

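Gene counts were deposited per library by the authors as raw read counts with a length per gene; the submitters' processing notes name STAR 2.5.3 and featureCounts 1.5.3, besides DESeq2, Trimmomatic 0.32, SAMtools 0.1.19 and FastQC 0.11.2, on build mm10. The libraries were made with a stranded total RNA kit, per the labels' protocols. Neither the annotation release nor the options for counting is given in the sources used here. The deposited lengths of all 39 Hox genes equalled their whole spans in GENCODE M21, and each Hox gene that spans a nested gene had at least as many counts in all 5 libraries. Where a protein-coding gene with a summed count of at least 1000 lies inside another gene, the same held for 339 of 339 pairs on the same strand and 154 of 154 on opposite strands. So the counts cover introns, do not part strands and enter each overlapping gene, and the totals of 27827199 to 48794336 hold such reads more than once.

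Groups and replicate numbers came from the titles. Counts were tested with edgeR 4.0.16 in R 4.3.3 (filterByExpr by group, TMM, robust quasi-likelihood F test, group as the only term) over 17026 genes, with Benjamini-Hochberg adjustment and a threshold of 0.05; the test was run first on simulated data. SE is the log2 fold change over the square root of F. CPM used TMM-scaled totals. Reads in common were parted by subtracting counts of nested genes. Alternatives were other scalings and filters, DESeq2 1.42.0, limma-voom (limma 3.58.1), the replicate number as a block, reads outside nested genes and each library left out. All tested members are named; of each companion list, called genes and the 2 most abundant. A gene that this rule names is not reported here. The members and lists were chosen with earlier results of these data known.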

Additional observations from a re-analysis of the deposited data

How the results depend on the processing

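The 5 rises and 0 falls among Hox genes were found under DESeq2 size factors, total-count scaling, both filters, DESeq2, limma-voom, reads outside nested genes and the replicate block. With each library left out in turn, 0 to 6 Hox genes rose and 0 fell, 11 to 2325 of all genes rose and 12 to 2617 fell, and 0 to 15 companion genes rose and 0 to 18 fell, against 3 and 1. All 5 called genes kept their direction. Between 12 (2 CPM) and 16 (0.5 CPM) members were expressed in pBABE cells, 13 outside nested genes, and 15 to 16 by a single pBABE library.

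Without a filter on low counts 1591 genes rose and 1330 fell, and 9 companion genes rose and 4 fell. Companion rises were 5 with total-count scaling, which called 999 genes higher and 465 lower, and 1 with limma-voom, and DESeq2 called 2 companion falls. The deviations of same-numbered libraries correlated at -0.055 for number 1 and -0.025 for number 2. With 2 pBABE libraries, whose deviations mirror each other, this check cannot exclude pairing by number. Under the replicate block 1477 genes rose and 1231 fell, and 7 companion genes rose and 4 fell. The cause of these shifts was not tested.

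Direction turned for uncalled members alone. Hoxc5 was at -0.17 outside nested genes, Hoxa7 at 0.022 and Hoxd9 at -0.071 with the replicate block, and Hoxd8 at -0.0080 without a filter. Leaving out libraries gave -0.23 to 0.061 for Hoxa3, -0.049 to 1.30 for Hoxa5, -0.39 to 0.39 for Hoxa7, -0.12 to 0.46 for Hoxc8, -0.047 to 0.035 for Hoxd8 and -0.064 to 0.076 for Hoxd9. The 5 tested members with means under 1 CPM in both groups had SEs of 0.27 to 0.47, against 0.091 to 0.25 for the other 15.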
